A study of Mus musculus with 21 samples.

Results

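The genes described here are 10 regulators of epithelial identity: the surface adhesion molecule Epcam, the splicing regulators Esrp1 and Esrp2, the transcription factors Grhl2 and Elf3, the membrane protease St14 with its inhibitors Spint1 and Spint2, the recycling-endosome GTPase Rab25, and the apical polarity protein Crb3. They were chosen by name, with earlier results of these data known. Each of the 10 is represented by 1 probe set that the platform annotation assigns to that symbol alone, and they are 10 of the 19296 genes with such a probe set. The study profiled the embryonic mouse pancreas with microarrays after sorting its cells by a Foxa2-Venus fusion protein (FVF), a fluorescent reporter made by joining Venus to Foxa2, a transcription factor of the endoderm. All animals were of a mixed C57-Bl6/SV129/CD1 background, both sorts came from pancreata carrying the reporter, and no other genotype or treatment was given. Reporter-positive cells (FVF+) were measured on 3 arrays on each of the days E12.5, E14.5 and E15.5 and on 2 for E13.5, and reporter-negative cells (FVF-) on 3 arrays on each of the last 2 days and on 2 on each of the first 2. The series' design text calls the replicates biological, but whether embryos were pooled for an array, and the copy number of the fusion allele, are not given in the sources used here.

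Epithelia are sheets of cells that adhere to each other, have an apical and a basal face, and control the proteases on their surface. Grainyhead-like factors such as Grhl2 activate many of the genes that build this state, Esrp1 and Esrp2 direct the splicing of transcripts into their epithelial isoforms, and Zeb, Snail and Twist factors repress the programme when cells become mesenchymal. In the embryonic pancreas the epithelium forms the branching tree from which acinar, duct and endocrine cells arise, and it is surrounded by mesenchyme, vessels and blood cells.

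The values are log2 RMA signals, so that a difference of 1 is a 2-fold change. Array medians lay between 8.68 and 8.82. Foxa2, whose protein defined the sorts, had signals from 10.87 to 11.51 on the FVF+ arrays and from 7.98 to 8.89 on the FVF- arrays, with no overlap. Lists of epithelial, pancreatic progenitor, endocrine and acinar markers were higher in FVF+ cells in 5 of 5 measured genes each. The progenitor list includes Foxa2 itself. Markers of mesenchyme (6 of 6), endothelium (5 of 5), macrophages (5 of 5), red blood cells (3 of 3) and mesothelium (3 of 4) were lower. Of all genes, 30.5% were called higher in FVF+ cells and 25.2% lower. The marker lists were chosen with earlier results of these data known, so these counts are no independent check of the sort. The FVF- sort was not free of epithelial signal: its mean over the 5 epithelial markers Cdh1, Krt8, Krt18, Cldn6 and Cldn3 ran from 8.93 to 10.38, against 12.90 to 13.29 in FVF+ cells. Bulk samples cannot tell fewer cells of a type from less RNA per cell. Of the FVF- arrays, E14.5 replicate 3 stood apart in the 10 genes, and values without it are given beside the comparisons by day below. The mesenchyme marker mean was 8.76 and 8.89 on FVF+ E12.5 replicates 3 and 2, 9.81 on FVF+ E12.5 replicate 1, and 9.08 to 10.04 on the FVF+ arrays of the later days. The arrays' labels also carry running codes that rise with the embryonic day, apart from letters for 3 of the 4 E13.5 arrays, so any processing order they stand for cannot be told apart from the day.

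RefSeq's promoter sequences (GRCm38.p6) held 6 of the 10 genes: Epcam, Elf3, Spint1, Spint2, Rab25 and Crb3. The 250 bases before each start site were searched for 3 short motifs on both strands. ACCGGT is a core of Grainyhead-like sites and reads the same on both strands. CAGGTG is an E-box form that Zeb and Snail factors bind, and appears as CACCTG when it lies on the opposite strand. CCGGAA is a core of sites for the ETS family, to which Elf3 belongs, and appears as TTCCGG on the opposite strand. No 2 of the sites found shared a base. ACCGGT was present in 1.86% of 32851 mouse promoter windows of this length, CAGGTG in 17.2% and CCGGAA in 12%. The promoters below are shown because together they carry all 3 motifs, written in capitals, and because they belong to the adhesion gene, to the paired inhibitors and to the polarity gene; each reads 5' to 3' along the gene's strand. They lie at chr17:87635729-87635978 (plus strand) for Epcam, chr2:119237110-119237359 (plus) for Spint1, chr7:29281978-29282227 (minus) for Spint2 and chr17:57061951-57062200 (plus; the first of 2 listed start sites) for Crb3.
Epcam: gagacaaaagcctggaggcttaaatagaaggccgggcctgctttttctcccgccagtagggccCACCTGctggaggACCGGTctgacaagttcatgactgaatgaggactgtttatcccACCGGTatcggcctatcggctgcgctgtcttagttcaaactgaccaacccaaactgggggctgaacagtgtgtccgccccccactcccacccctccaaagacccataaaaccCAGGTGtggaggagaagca
Spint1: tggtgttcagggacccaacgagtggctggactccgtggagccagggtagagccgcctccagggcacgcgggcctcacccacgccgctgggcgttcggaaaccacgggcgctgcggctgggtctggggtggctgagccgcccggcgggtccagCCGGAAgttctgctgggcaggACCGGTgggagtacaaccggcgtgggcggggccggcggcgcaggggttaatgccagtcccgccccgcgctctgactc
Spint2: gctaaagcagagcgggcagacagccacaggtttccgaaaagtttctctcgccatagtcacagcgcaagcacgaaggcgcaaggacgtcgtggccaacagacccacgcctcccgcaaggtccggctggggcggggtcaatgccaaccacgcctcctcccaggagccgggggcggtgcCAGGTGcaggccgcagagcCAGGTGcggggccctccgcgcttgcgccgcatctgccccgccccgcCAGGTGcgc
Crb3: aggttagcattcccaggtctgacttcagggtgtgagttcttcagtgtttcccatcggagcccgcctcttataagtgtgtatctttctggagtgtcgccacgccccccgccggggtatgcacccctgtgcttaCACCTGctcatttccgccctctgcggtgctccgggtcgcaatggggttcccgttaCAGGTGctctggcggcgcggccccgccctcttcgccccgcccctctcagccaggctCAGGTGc

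The Epcam window held ACCGGT at 2 positions, 174 and 131 bases before the start site, and the Spint1 window held it at 1, 77 bases before. CAGGTG in either orientation was present in 5 of the 6 genes: 3 times in Spint2 and in Crb3, 2 times in Epcam and in Rab25, and 1 time in Elf3. Spint1 had no CAGGTG and was the gene among the 6 with CCGGAA, 98 bases before its start site, apart from the window of the second Crb3 start site, which held it 25 bases before. These are matches of letters in a window, and the arrays did not measure the binding of any factor.

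All 10 genes were higher in FVF+ cells. The mean of the 4 daily differences ranged from 2.12 for Crb3 to 4.71 for Esrp1 on the log2 scale, or from 4.35-fold to 26.3-fold, with a median of 3.51 against 0.03 over all genes. In limma's test with Benjamini-Hochberg adjustment over all genes, 10 of 10 passed an adjusted p under 0.05, with adjusted p from 3.0e-15 (Rab25) to 1.9e-10 (Grhl2), where 30.5% of all genes were called higher. The 10 were also called higher on each day, against 17.2%, 15.8%, 23.1% and 24.4% of all genes from the first day to the last, and 9.22% on all 4 days. Every FVF+ array was above every FVF- array, over all days together, for all 10 genes, against 7.81% of all genes. All 10 were called and at least 2-fold higher, against 5.14% of genes. The narrowest space between the sorts was 0.88 in Grhl2, set by FVF- E14.5 replicate 3, and the widest was 3.05 in Rab25.

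**Figure D1:**
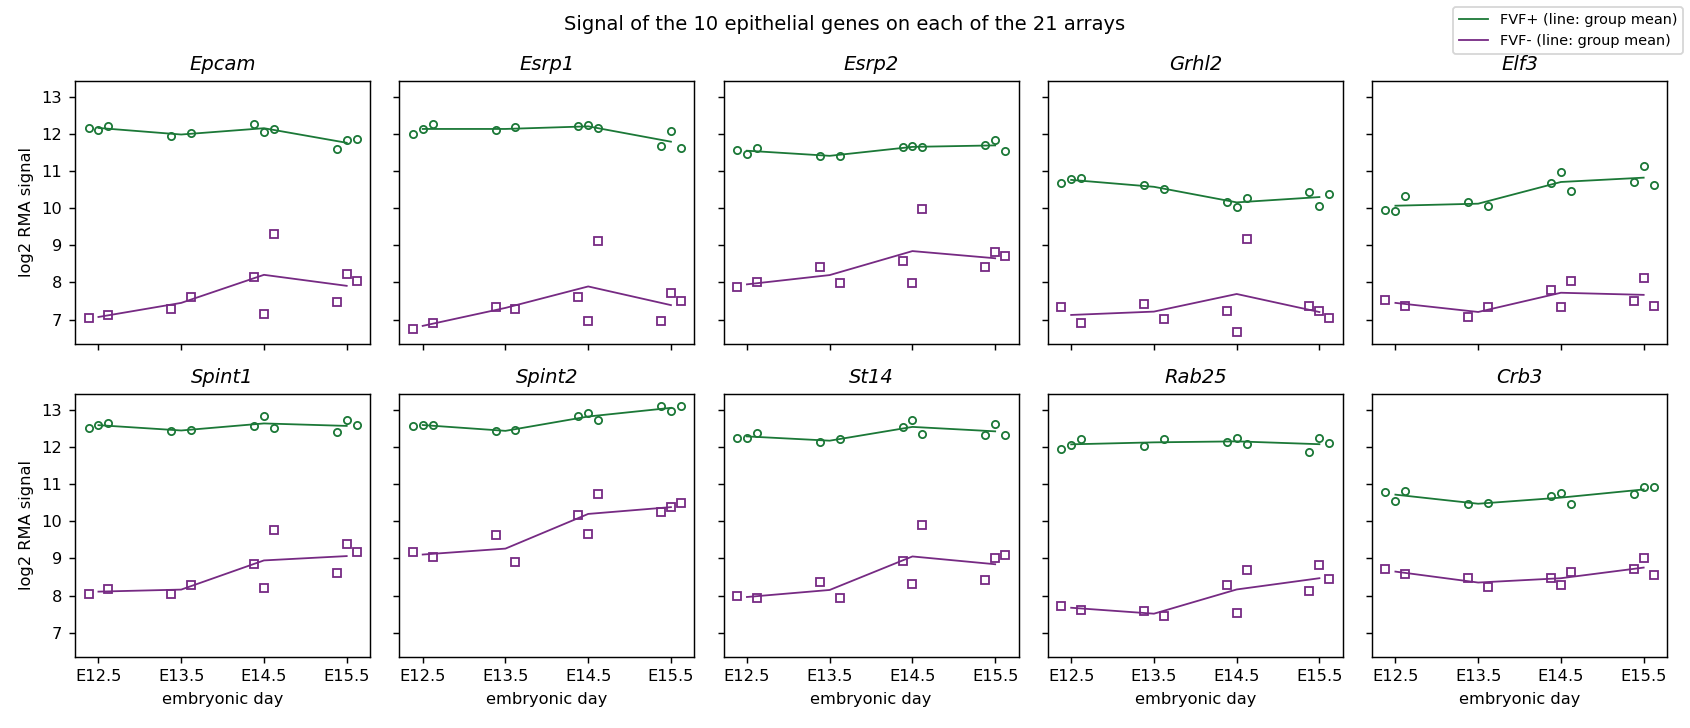
Log2 RMA signal (y axis) of each of the 10 genes on each array by embryonic day (x axis); circles are FVF+ arrays, squares FVF- arrays, and lines join the group means of 2 or 3 arrays. The FVF+ arrays lie above the FVF- arrays in every panel, and the lone high square at E14.5 is FVF- replicate 3, at 9.31 in Epcam and 9.16 in Grhl2.

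Epcam encodes a homophilic adhesion molecule of epithelial cells that is cut within the membrane to release a signalling fragment. On the FVF+ arrays it measured 12.16, 12.12 and 12.22 on the first day, then 11.95 and 12.03, then 12.28, 12.05 and 12.15, and 11.60, 11.84 and 11.86 on the last. On the FVF- arrays it measured 7.03 and 7.11, then 7.29 and 7.61, then 8.15, 7.16 and 9.31, and 7.47, 8.22 and 8.04. The FVF+ values stayed within 0.68 of each other and E15.5 was the lowest day, while the FVF- values spread over 2.28. The sort difference was 5.10 ± 0.37 (SE) at E12.5 and 3.86 ± 0.33 at E15.5. Only 22 of all genes had a larger mean difference than Epcam.

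Esrp1 and Esrp2 are paralogous RNA-binding proteins that promote epithelial splice forms. In order of day, Esrp1 measured 12, 12.15 and 12.27, then 12.10 and 12.18, then 12.22, 12.24 and 12.17, and last 11.68, 12.08 and 11.63 on the FVF+ arrays. In FVF- cells it measured 6.74 and 6.92, 7.35 and 7.28, 7.60, 6.96 and 9.12, and 6.96, 7.71 and 7.50 on those days. Only 10 genes had a larger mean sort difference, and its lowest FVF+ array was 2.51 above its highest FVF- array. Esrp2 measured 11.41 to 11.83 (median 11.62) over the FVF+ arrays and 7.88 to 9.98 (median 8.43) over the FVF- arrays, a mean difference of 3.17 ± 0.17 (SE), and 108 genes had a larger one.

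On the array scale, the sort difference was larger for the Esrp1 probe set than for that of Esrp2. A probe set's level cannot be set against another's. The within-array difference of the pair shows only whether its probe sets differ in their sort difference on the array scale. Esrp1 minus Esrp2 ranged from -0.03 to 0.77 on the FVF+ arrays and from -1.47 to -0.70 on the FVF- arrays, with no overlap, and the mean over days differed by 1.55 between the sorts. An exact permutation test of the sort labels within days (two-sided, 24000 arrangements) gave p = 4.2e-05, the smallest it can give, or 6.3e-05 after adjustment over the 3 pairs compared. In FVF+ cells the pair's difference was 0.59 ± 0.15 (SD, n = 3), 0.73 ± 0.06 (n = 2), 0.55 ± 0.04 (n = 3) and 0.10 ± 0.14 (n = 3) in order of day, so that the E15.5 arrays lay below those of the earlier days; this step was not tested.

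Grhl2 encodes the Grainyhead-like factor of early epithelia. On the FVF+ arrays of the successive days it measured 10.67, 10.80 and 10.83, then 10.64 and 10.52, then 10.16, 10.04 and 10.28, and then 10.45, 10.07 and 10.39. On the FVF- arrays it measured 7.34 and 6.91, 7.42 and 7.01, 7.24, 6.67 and 9.16, and 7.36, 7.22 and 7.03. With 1 exception the FVF- arrays stayed at or under 7.42; the exception, E14.5 replicate 3, was 1.74 above the next. At E14.5 the sort difference was 2.47 ± 0.38 (SE) with that array and 3.21 ± 0.17 without it, the latter near the 3.10 ± 0.38 of E15.5. Over the 4 days the mean was 3.14 ± 0.21, and 3.33 ± 0.09 without that array.

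Elf3 encodes an ETS-family factor of epithelial differentiation. Day by day, its FVF+ arrays measured 9.96, 9.93 and 10.32, then 10.18 and 10.07, then 10.68, 10.97 and 10.48, and then 10.71, 11.14 and 10.63. Its FVF- arrays measured 7.54 and 7.36, 7.06 and 7.35, 7.79, 7.35 and 8.03, and 7.50, 8.13 and 7.37. All FVF+ arrays of the last 2 days were above all of the first 2, whereas in FVF- cells the other 3 days overlapped and no E13.5 array exceeded an array of another day. The mean sort difference was 2.92 ± 0.11 (SE), and the daily value ranged from 2.62 ± 0.23 at E12.5 to 3.16 ± 0.20 at E15.5.

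St14 encodes matriptase, a membrane serine protease of epithelia, and Spint1 and Spint2 encode the Kunitz-type inhibitors HAI-1 and HAI-2 that restrain it. St14 measured 12.14 to 12.74 (median 12.34) on the FVF+ arrays and 7.92 to 9.91 (median 8.40) on the FVF- arrays, a mean difference of 3.86 ± 0.15 (SE). Spint1 measured 12.41 to 12.84 (median 12.57) and 8.03 to 9.78 (median 8.45), a mean difference of 4.0 ± 0.14. The protease and this inhibitor had the closest profiles among the 45 pairs of the 10 genes: their group means, each centred on its own mean, differed by 0.13 log2 units as a root mean square over the 8 groups. St14 minus Spint1 within arrays differed between sorts by -0.14, and the exact permutation test gave p = 0.104 with or without adjustment over the 3 pairs; it ranged from -0.22 to -0.05 when single arrays were left out and had p = 0.019 without FVF- E13.5 replicate 2 and 0.031 without FVF- E15.5 replicate 2.

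On the array scale, the Spint2 probe set differed less between the sorts than that of Spint1 did. From the first to the last day its FVF+ arrays measured 12.58, 12.61 and 12.60, then 12.43 and 12.45, then 12.84, 12.91 and 12.73, and then 13.11, 12.97 and 13.10. Its FVF- arrays measured 9.16 and 9.05, 9.62 and 8.91, 10.18, 9.67 and 10.75, and 10.26, 10.40 and 10.49. Within FVF+ cells the 4 days did not overlap, with E13.5 lowest and E15.5 highest, and in FVF- cells all arrays of the last 2 days were above those of the first 2. The mean sort difference was 2.99 ± 0.11 (SE). Spint1 minus Spint2 differed between the sorts by 1.0 (exact permutation p = 4.2e-05, again the smallest possible, or 6.3e-05 adjusted over the 3 pairs). It ranged from -0.70 to 0.05 on the FVF+ arrays and from -1.65 to -0.62 on the FVF- arrays. Unlike the Esrp pair, these ranges overlapped over all days, though not within any day.

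Rab25 encodes a Rab11-family GTPase of recycling endosomes in epithelial cells. It measured 11.88 to 12.26 (median 12.10) in FVF+ and 7.45 to 8.83 (median 7.93) in FVF- cells, a mean difference of 4.16 ± 0.12 (SE), and its 4 FVF+ days could not be ordered, since each overlapped its neighbours. Crb3 encodes the Crumbs protein of the apical membrane in most epithelia. It measured 10.46 to 10.93 (median 10.73) in FVF+ and 8.23 to 9.0 (median 8.56) in FVF- cells. Its mean difference of 2.12 ± 0.07 was the smallest of the 10, yet only 280 genes of the array had a larger one, and from 2.08 to 2.17 it varied least by day.

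**Figure D2:**
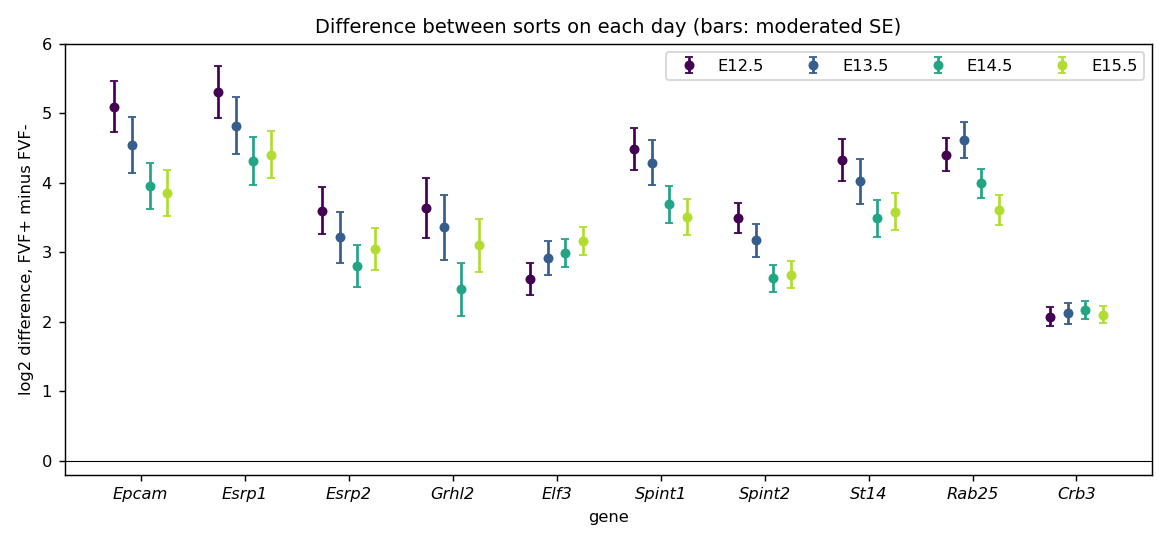
FVF+ minus FVF- difference in log2 signal (y axis) of each of the 10 genes (x axis), with 1 point per embryonic day in the colour of the legend, as fitted by limma; bars are moderated standard errors. Every value is above 2, the lowest being 2.08 (Crb3 at E12.5) and the highest 5.31 (Esrp1 at E12.5).

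Within FVF+ cells from E12.5 to E15.5, Elf3 rose and no other gene of the 10 was called. Elf3 rose by 0.76 ± 0.20 (SE; adjusted p = 0.0060). Spint2 was 0.46 ± 0.19 higher at E15.5 (adjusted p = 0.057), Grhl2 differed by -0.46 ± 0.38 (adjusted p = 0.33), Epcam by -0.40 ± 0.33 and Esrp1 by -0.34 ± 0.34. The other 5 lay between -0.02 and 0.14, with standard errors up to 0.30. One call in 10 stands beside 46.9% of all genes called in this comparison, 27.6% higher and 19.3% lower; 2 of the 10 had an unadjusted p under 0.05, against 54.3% of all genes. The Elf3 call held in 33 of 33 refits, with 0.60 to 0.88 as its range. Its rise was 1.69-fold, so that a 2-fold minimum would leave it out. Spint2 passed in 11 of the refits, Grhl2 in 3 and Epcam in 1. Refits that leave out arrays of groups not compared can change the error but not the differences themselves. Without FVF- E14.5 replicate 3, whose spread enters the shared error, Grhl2 fell by 0.46 ± 0.16 (adjusted p = 0.023) and Spint2 rose (adjusted p = 0.016). In that refit 47.4% of all genes were called. Epcam passed in limma's fit on only the groups compared, at -0.40 ± 0.10 (SE, adjusted p = 0.0092). The mesenchyme markers also moved in FVF+ cells over these days (3 of 6 higher, 1 lower), as did acinar (3 of 5 higher) and endocrine markers (3 of 5 higher), and their part in the Elf3 result was not tested.

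From day to day in FVF+ cells, none of the 10 genes was called at E13.5 against E12.5, at E14.5 against E13.5 or at E15.5 against E14.5 in the limma fit, where 0.00518%, 8.85% and 25.6% of all genes were called. At an unadjusted p under 0.05 the counts were 0, 1 and 0, against 9.71%, 24% and 40.2% of all genes. The 1 was Elf3 between E13.5 and E14.5, at 0.59 ± 0.23 (SE; adjusted p = 0.12).

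Within FVF- cells from E12.5 to E15.5, all 10 genes had positive differences and 4 rose by the test. Spint2 rose by 1.28 ± 0.22 (SE; adjusted p = 4.0e-04), Spint1 by 0.96 ± 0.30 (adjusted p = 0.028), St14 by 0.88 ± 0.30 (adjusted p = 0.044) and Rab25 by 0.80 ± 0.24 (adjusted p = 0.023). These 4 of 10 stand beside 20.4% of all genes called in either direction and 10.7% called higher. Epcam was 0.84 ± 0.37 higher (adjusted p = 0.12), Esrp2 0.70 ± 0.34 and Esrp1 0.56 ± 0.38, while Elf3, Crb3 and Grhl2 were 0.22, 0.11 and 0.08 higher, each within its standard error; these signs were not stable, since Grhl2 turned under median centring and without FVF- E12.5 replicate 2 (-0.14), and Elf3 and Crb3 turned without FVF- E15.5 replicate 2 (both -0.015). The median of the 10 was 0.75 against -0.01 over all genes.

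The Spint2 rise in FVF- cells passed in 33 of 33 refits, between 1.20 and 1.41. Here too, leaving out arrays of groups not compared could change only the error. St14 passed in 19 of 33: its adjusted p was 0.051 to 0.054 without any 1 of 8 FVF+ arrays, and up to 0.20 without 1 of the E12.5 or E15.5 FVF- arrays. Spint1 passed in 29 and Rab25 in 30. The number of genes called went from 4 to 1 without FVF- E12.5 replicate 1, without FVF- E12.5 replicate 2 or without FVF- E15.5 replicate 2. It went to 2 without FVF- E15.5 replicate 3. Without FVF- E14.5 replicate 3 it was 6, when Epcam and Esrp2 also passed, beside 20.7% of all genes. For the other refits the share of all genes is not reported here. Over the same days 5 of 5 acinar markers rose in FVF- cells (median 2.94), and their mean ran from 8.0 to 8.37 at E12.5 and from 11.12 to 12.31 at E15.5. Of the epithelial markers 4 of 5 rose by the test (median 0.75). So did 0 of 5 pancreatic progenitor markers (median 0.57), 1 of 5 endocrine (0.49) and 3 of 6 mesenchyme markers (0.47). The same held for 3 of 4 mesothelium (0.88), 3 of 5 macrophage (0.93) and 1 of 5 endothelium markers (0.89). Over all genes the median was -0.005, with 10.7% called higher and 9.7% lower. Of 3 red blood cell markers 2 fell and 1 rose (median -1.99). Their part in the result was not tested.

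**Figure D3:**
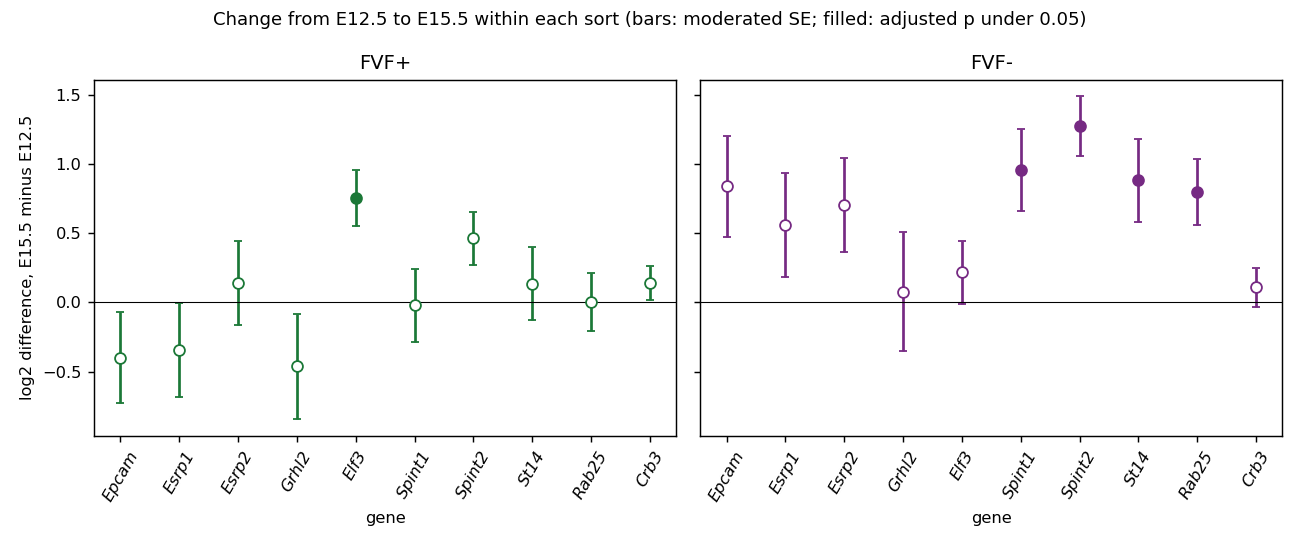
Difference in log2 signal between E15.5 and E12.5 (y axis) for each of the 10 genes (x axis) in FVF+ cells (left) and FVF- cells (right), as fitted by limma; bars are moderated standard errors and filled points passed an adjusted p under 0.05. Spint2 in FVF- cells lies farthest from 0 at 1.28, and in FVF+ cells only Elf3, at 0.76, passed the test.

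By single days in FVF- cells, Spint2 alone was called, at E14.5 against E13.5 (0.94 ± 0.22 SE, adjusted p = 0.017; 8.3% of all genes called); without FVF- E14.5 replicate 3 it was 0.66 ± 0.18 (adjusted p = 0.029). None of the 10 was called without FVF- E13.5 replicate 2 or FVF- E14.5 replicate 1. Nor was any called with array weights, only the groups compared or a term for letter-coded arrays. That term is set by the FVF- E13.5 arrays alone, so here it is the same check as leaving out FVF- E13.5 replicate 2. Without FVF- E14.5 replicate 2, 6 were called, with the share of all genes in that refit not reported here. In the limma fit no gene of the 10 was called at E13.5 against E12.5 (1.02% of all genes) or at E15.5 against E14.5 (6.49%), with 0 and 1 at an unadjusted p under 0.05 (13.8% and 24.2% of all genes).

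The sort difference at E15.5 was smaller than at E12.5 for 8 of the 10 genes, by up to 1.24 ± 0.49 (SE) in Epcam. In limma's interaction test 0 of 10 were called, against 19.6% of all genes; 4 had an unadjusted p under 0.05, against 34.4% of all genes, and the smallest adjusted p was 0.056, in Spint2 (-0.81 ± 0.29). Without FVF- E14.5 replicate 3, whose group is not part of this contrast but whose spread enters the shared error, 5 were called (Epcam, Esrp1, Spint1, Spint2 and Rab25), against 20.5% of all genes; 4 were called without FVF- E14.5 replicate 2, 2 without FVF- E15.5 replicate 1 and 1 without either FVF- E13.5 array. A test of any variation of the sort difference over the 4 days also called 0 of 10 (16.5% of all genes), with 2 at an unadjusted p under 0.05 (32.7% of all genes). It called 1 (Epcam, adjusted p = 0.043) without FVF- E14.5 replicate 3, where 18.1% of all genes were called. Without FVF- E14.5 replicate 2 it called 4, and without FVF- E13.5 replicate 1 it called 1 (Spint2). In both tests, the share of all genes is not reported here for refits without arrays other than FVF- E14.5 replicate 3. Those counts therefore do not single out the 10 genes. Crb3 and Elf3 were the genes whose differences were larger at E15.5, by 0.03 ± 0.19 and 0.54 ± 0.30, neither of which passed; the sign of the Crb3 value turned when any of 4 single arrays was left out, among them FVF- E15.5 replicate 3 (-0.075).

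FVF- E14.5 replicate 3 was the highest of the 10 FVF- arrays for 7 of the 10 genes, all but Elf3, Rab25 and Crb3, where 5.65% of all genes (1091) were highest on that array. It exceeded the next array by 1.74 in Grhl2, 1.41 in Esrp1, 1.16 in Esrp2, 1.09 in Epcam, 0.83 in St14, 0.38 in Spint1 and 0.26 in Spint2. The mean of the 10 genes was 9.34 on this array and 7.77 to 8.68 on the other 9. Foxa2 (8.89, against at most 8.56) and the progenitor marker mean, of which Foxa2 is a part (9.30, against at most 8.69), were highest on it too. So were the epithelial marker mean (10.38, against at most 10.26) and the red blood cell marker mean at 13.36. What part Foxa2 and these marker lists have in the values of the 10 genes was not tested. All 10 genes were called higher in FVF+ cells without this array as well.

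**Figure D4:**
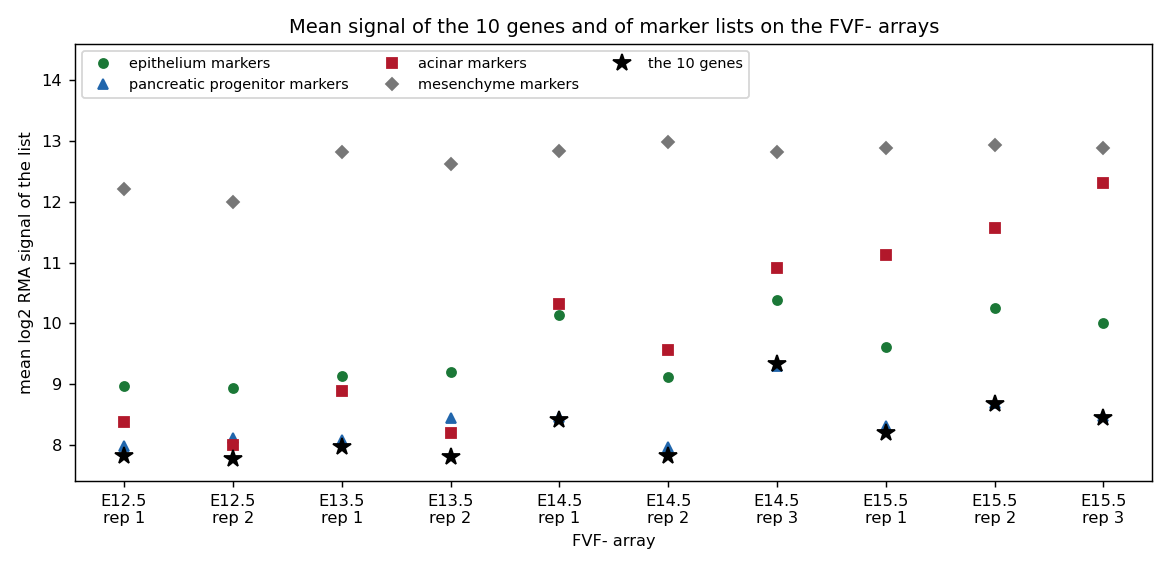
Mean log2 signal (y axis) of the 10 genes (stars) and of 4 marker lists on each of the 10 FVF- arrays (x axis). The mean of the 10 genes peaks at 9.34 on E14.5 replicate 3, where the progenitor markers reach 9.30, while acinar markers are highest at E15.5, up to 12.31.

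The genes around these regulators were grouped into lists by their known function. The counts below stand beside 30.5% of all genes called higher and 25.2% called lower in FVF+ cells, and beside 27.6% that rose and 19.3% that fell in FVF+ cells from E12.5 to E15.5. Of 11 measured epithelial transcription factors, 10 were higher in FVF+ cells and 1 lower (median 0.77, against 0.03 over all genes). Ehf, an ETS factor related to Elf3, was 3.16 ± 0.10 (SE) higher and Elf5 1.90 ± 0.10, while Klf4 was lower (-1.40 ± 0.09). All 6 mesenchymal transition factors were lower in FVF+ cells (median -2.93), led by Zeb2 at -3.44 ± 0.19 and Zeb1 at -3.08 ± 0.12. From E12.5 to E15.5 in FVF+ cells, 8 of the 11 epithelial factors rose and 1 fell (all genes, 27.6% and 19.3%), with Spdef at 1.72 ± 0.12, Ovol1 at 1.20 ± 0.13 and Trp63 at -0.64 ± 0.11; Ovol2, at 0.17 ± 0.11, was not called. Of the mesenchymal factors Snai2 fell (-1.03 ± 0.29) and Zeb1 (0.14 ± 0.22) was among the 5 not called.

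Among 16 other splicing regulators, 6 were higher in FVF+ cells, 6 lower and 4 not called (median -0.06), shares near those of all genes (30.5% and 25.2%). Rbm47, an RNA-binding protein that also acts in epithelial splicing, was 3.43 ± 0.14 (SE) higher and Rbfox3 0.73 ± 0.08 higher. Celf2 (-1.42 ± 0.09) and Rbfox1 (-1.22 ± 0.07) were lower, and Mbnl1 differed by -0.05 ± 0.12. Over time in FVF+ cells 2 of the 16 rose and 5 fell (all genes, 27.6% and 19.3%); Qk fell by 1.47 ± 0.21 and Ptbp2 by 1.13 ± 0.20, Mbnl3 rose by 0.68 ± 0.18 and Nova2 by 0.39 ± 0.14, and Rbm47 (0.62 ± 0.25) was not called. Of 5 measured genes known to hold Esrp-controlled exons, 3 were higher and 2 lower in FVF+ cells (median 0.31): Fgfr2, a receptor whose isoforms differ between epithelium and mesenchyme, was 1.50 ± 0.14 higher, Enah 0.42 ± 0.09 higher, and Cd44 (-0.83 ± 0.07) and Arhgef11 (-0.22 ± 0.05) were lower. In FVF+ cells from E12.5 to E15.5, Enah fell by 0.91 ± 0.17 and Fgfr2 by 0.81 ± 0.25, Cd44 rose by 0.57 ± 0.13, and Arhgef11 (0.04 ± 0.09) was not called. Each value summarises the probes of a whole probe set, so these data do not show the use of any exon.

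Of 14 measured membrane proteases and their substrates, 10 were higher in FVF+ cells, 2 lower and 2 not called (median 0.58), beside 30.5% and 25.2% of all genes. Prss8, the prostasin protease that works with matriptase, was 3.96 ± 0.15 (SE) higher, and Met, the receptor of hepatocyte growth factor, 2.67 ± 0.12 higher. The ligand gene Hgf was lower (-2.59 ± 0.12), as was the related receptor gene Mst1r (-1.96 ± 0.09), and the sodium channel subunit Scnn1a differed by 0.18 ± 0.08 without a call. Over time in FVF+ cells 4 of the 14 rose and 2 fell, shares close to or under the 27.6% and 19.3% of all genes: Tmprss4 rose by 1.57 ± 0.13 and Scnn1b by 1.08 ± 0.13, Scnn1a fell by 0.68 ± 0.14 and Met by 0.64 ± 0.21, and Prss8 (0.59 ± 0.27) was not called.

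Of 18 polarity genes, 10 were higher in FVF+ cells, 5 lower and 3 not called (median 0.23), beside 30.5% and 25.2% of all genes. Llgl2, of the basolateral Scribble group, was 2.77 ± 0.13 (SE) higher and Patj, of the Crumbs complex, 1.60 ± 0.08. The angiomotin gene Amot (-2.49 ± 0.10) and the Crumbs paralog Crb2 (-1.25 ± 0.08) were lower, the latter opposite to Crb3, while Mpp5, which encodes Pals1, differed by 0.32 ± 0.14 without a call. Over time in FVF+ cells 3 of the 18 rose and 8 fell (all genes, 27.6% and 19.3%), with Llgl2 at 0.62 ± 0.23, Lin7b at 0.55 ± 0.11, Amot at -0.98 ± 0.19 and Lin7a at -0.83 ± 0.14; Crb1, at 0.14 ± 0.10, was not called. Of 11 recycling-endosome genes, 4 were higher, 4 lower and 3 not called (median 0.07). Myo5b, the motor that carries Rab11-family endosomes, was 3.09 ± 0.15 higher and Rab11fip1 1.22 ± 0.08, while Rab11fip5 (-0.90 ± 0.06) and the related motor Myo5a (-0.55 ± 0.11) were lower and Rab11fip2 (0.11 ± 0.13) was not called. Over time in FVF+ cells 1 rose (Rab11fip5, by 0.46 ± 0.11) and 4 fell, with Rab11fip2 at -1.73 ± 0.23 and Myo5a at -1.13 ± 0.19; Rab11b, at -0.23 ± 0.11, was not called.

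Of 9 measured partners and proteases of Epcam, 6 were higher in FVF+ cells, 2 lower and 1 not called (median 0.33), beside 30.5% and 25.2% of all genes. Cldn7, the claudin that binds Epcam, was 3.55 ± 0.11 (SE) higher and the sheddase gene Adam10 0.60 ± 0.09. Cldn1 (-1.91 ± 0.07) and the tetraspanin gene Cd81 (-0.61 ± 0.04) were lower, and Tspan8 (0.08 ± 0.04) was not called. Over time in FVF+ cells 4 of the 9 rose and 1 fell (all genes, 27.6% and 19.3%), with Cd9 at 0.82 ± 0.13, Psen2 at 0.61 ± 0.09 and Cldn1 at -1.0 ± 0.13; Cd81, at -0.08 ± 0.08, was not called.

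The genes closest in profile were found by the root mean square difference between group means over the 8 groups, each gene centred on its own mean. Nearest to the mean profile of the 10 was Ocln, which encodes the tight-junction protein occludin, at 0.13 log2 units. Next were the forkhead factor gene Foxa3 at 0.15, Plch1 at 0.15, Smoc1 at 0.17 and Wfdc15b at 0.17. Prss8 was the nearest gene outside the 10 to both St14 (0.14) and Spint1 (0.17). Esrp1 lay nearest to Akr1c19 (0.09), Esrp2 to Plch1 (0.10), Grhl2 to the myosin gene Myo5c (0.10), Epcam to the endocrine factor gene Nkx2-2 (0.12), Crb3 to Arhgef16 (0.14), Elf3 to Llgl2 (0.14), Spint2 to Adgrg1 (0.16) and Rab25 to Slc16a12 (0.17). Among the 10 themselves, Spint1 with Rab25 (0.13) and Epcam with Esrp1 (0.21) were the closest pairs after Spint1 with St14, and Esrp1 with Crb3 the farthest (1.35). All these distances come from the same 21 arrays and are dominated by the size of the sort difference.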

How the data were processed

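RNA from FVF+ and FVF- cells of mouse embryonic pancreas was measured on 21 Affymetrix arrays in 8 groups of sort and day. The authors used RMA from affy 1.44.0, per the submitters' processing notes; the deposited values are log2 signals, with no counts and no detection calls, so the number of arrays limits the precision. How probe sets were built is unstated here. Of 23305 probe sets, 20728 had 1 gene symbol in the platform annotation, 1174 several and 1403 none; for the 804 genes with several probe sets the one with the highest mean was used, leaving 19296 genes.

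Values were used as deposited, with no filter and no rescaling. limma 3.58.1 (R 4.3.3) fitted 8 group means with 13 residual degrees of freedom and no block, and moderated tests were adjusted by Benjamini-Hochberg over all 19296 genes; called means adjusted p under 0.05. Differences between 2 genes on the same array were compared by exact permutation of sorts within days. The genes named from each list were at most 2 called per direction with the largest difference and 1 not called, and the nearest profiles passed over predicted genes. Some listed genes are not reported here, and counts are over the genes measured. The fit was tested on simulated data. The 10 genes, the lists and the marker lists were chosen with earlier results of these data known. Alternatives were median centring, quantile and cyclic loess normalization, a filter on dim genes, array weights, fits on only the groups compared, the replicate number as a block, a term for letter-coded arrays, a 2-fold minimum and each array left out; leaving out the 2 arrays in doubt together, and the E13.5 arrays, was added after seeing the data.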

Additional observations from a re-analysis of the deposited data

How the results depend on the processing

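The 10 of 10 calls in the mean sort difference and on each day kept their number under each alternative run. Leaving out each array in turn, the number called ranged from 10 to 10 in these 5 comparisons. It ranged from 1 to 3 for FVF+ E15.5 against E12.5, 1 to 6 for FVF- E15.5 against E12.5, 0 to 6 for FVF- E14.5 against E13.5, 0 to 5 for the interaction, 0 to 4 for the variation over days, and 0 to 0 for the other 5 daily steps. The difference between sorts in Esrp1 minus Esrp2 ranged from 1.50 to 1.59, in Spint1 minus Spint2 from 0.88 to 1.12, and in St14 minus Spint1 from -0.2225 to -0.0525. For FVF+ E15.5 against E12.5 the count was 2 with cyclic loess, array weights, the letter term or the E13.5 arrays left out, 3 without both arrays in doubt (FVF+ E12.5 replicate 1 and FVF- E14.5 replicate 3), 4 with only the groups compared and 0 at a 2-fold minimum. For FVF- E14.5 against E13.5 it was 2 without dim genes and 0 with array weights, only the groups compared, the letter term or a 2-fold minimum, which also left 1 for FVF- E15.5 against E12.5. The interaction count was 1 with quantile normalization, the letter term or the E13.5 arrays left out, 4 with array weights, 5 without both arrays in doubt and 7 with only the groups compared. The variation over days gave 1 with array weights and 1 with the letter term, and FVF+ E15.5 against E14.5 gave 1 with only the groups compared. With fewer groups or arrays the error is estimated on fewer samples and can be smaller or larger. For Epcam in FVF+ E15.5 against E12.5 the standard error was 0.33 with all 8 groups and 0.10 with only the groups compared. The letter term, set by the FVF- E13.5 arrays alone, gives no check separate from leaving out 1 of them. What caused the changes in these counts was not tested. Except for the refit without FVF- E14.5 replicate 3, shares of all genes under these alternatives are not reported here. No called value changed sign. Of the listed genes called in the mean sort difference (119) and in FVF+ E15.5 against E12.5 (68), at most 4 and 8 lost the call under median centring, quantile or cyclic loess normalization, and 0 changed sign.

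Same-numbered FVF+ and FVF- arrays did not regularly deviate together (10 pairs, r from -0.37 to 0.49, 3 over 0.1). All E15.5 pairs were positive (0.08 to 0.20). With 2 arrays per group the E13.5 deviations mirror each other, so both pairs had r = -0.03. At E12.5, E14.5 and E15.5 the same-numbered arrays of the sorts carry consecutive running codes, whose meaning is not given. The labels do not say that the numbers pair samples, so no pairing was assumed, and the values of r do not settle it. In the replicate-block alternative, sort comparisons used a block for each day and replicate number. Comparisons between days within a sort instead took the replicate number as a term shared by all days and sorts. With that term, limma called 2 genes in FVF+ cells between E12.5 and E15.5 (Elf3 and Spint2). In FVF- cells St14 was then 0.80 higher (adjusted p = 0.074), while Grhl2 was -0.078.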
